A study of Mus musculus with 8 samples.

Results

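Within bone marrow that carries an active Etv2 transgene, stem and progenitor cells were set against granulocytic cells. The members are 4 of the 8 arrays of the study, chosen by their labels: 2 arrays of KSL cells and 2 arrays of Gr cells, all from Vav-Etv2 mice. KSL cells are lineage-negative cells that carry c-Kit and Sca-1, and Gr cells carry Gr-1 and Mac-1. In Vav-Etv2 mice an Etv2 transgene is switched on by a second transgene, Vav-iCre, which makes Cre recombinase in blood cells. Both cell types came from marrow of animals aged 6 weeks on a mixed strain background (B6/CBA and others), and the cells were only sorted, without culture or treatment. The other 4 arrays, 2 KSL and 2 Gr, came from control mice of the same age and background. The labels do not say whether an array is 1 animal, a pool or a repeat, so the p-values measure the spread between these samples alone. How much of that spread is technical was not tested. The Gr replicates also differed in sex-linked RNA, as given below. RNA was amplified from a low input, labelled with Cy3 and hybridised to 1-colour Agilent arrays.

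The KSL gate holds haematopoietic stem cells and their early multipotent descendants, which keep several lineage programmes at low activity and divide to supply all blood lineages. Neutrophil precursors leave this state by switching on granule proteins in waves. Primary granule enzymes such as myeloperoxidase are made at the promyelocyte stage, secondary and tertiary granule proteins such as lactoferrin later, under the transcription factor C/EBP-epsilon, and receptors for chemotaxis last. Etv2, an ETS family factor, directs the embryonic origin of blood and vessel cells and is normally silent in adult blood.

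Etv2 RNA was read by a pair of probes, which are shown because Etv2 is the gene of the transgene. The genotype of each array was taken from its label. The files place both on the minus strand of chromosome 7 in build mm9, and no part of either is singled out by capitals.
Etv2 probe at chr7:31419633-31419692: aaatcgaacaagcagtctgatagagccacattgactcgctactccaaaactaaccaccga
Etv2 probe at chr7:31418776-31418835: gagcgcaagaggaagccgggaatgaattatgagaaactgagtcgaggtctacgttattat
Levels here and below are log2 signals relative to the 75th percentile of the same array. The first probe, which stood for the gene, read 0.19 in replicate 1 and -1.24 in replicate 2 of the KSL cells, and -0.55 and -1.29 in the same order in Gr cells. The groups overlapped, and the difference of KSL minus Gr was 0.39 (SE 1.19, 95% interval -2.44 to 3.22, limma adjusted p = 0.824). The other probe read 0.01 and -2.53 in KSL cells and -2.33 and -1.88 in Gr cells, again with overlap. All 4 arrays were well above background on both probes. Among the controls, the array labelled Gr control 2 was also above background, at -0.54 and -0.85, which goes against its label, while the other 3 were not above background. That array does not enter the means of the Vav-Etv2 groups. It enters their comparison through the shared estimate of the spread, the filter on dim probes and the choice of probe for a gene. Whether the probes lie within the transgene was not tested.

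The replicates of each cell type differed in their content, and those of the Gr cells also in signal strength. Signals at the 75th percentile ran from 136.3 to 300.2 over the 8 arrays, and 47.7% to 55.48% of probes were well above background. Replicate 1 of the Gr cells was dim in control and Vav-Etv2 (136.3 and 149.1), and replicate 2 was bright (300.2 and 272.1). In the same order, the median SD of repeat spots was 0.117 and 0.113 against 0.0906 and 0.0936. The part of signal strength in the differences between Gr replicates was not tested. Over all tested features the replicate arrays correlated at 0.966 in KSL cells and 0.965 in Gr cells, and the SD of the difference between replicates was 0.896 and 0.961 log2 units. Each Vav-Etv2 Gr array correlated more closely with the control of its number than with its own replicate, at 0.979 for number 1 and 0.993 for number 2. Of the tested features, 978 differed by more than 4-fold between the KSL replicates and 870 between the Gr replicates, against 4220 between the KSL and Gr means. The Gr replicates also differed in sex-linked RNA. Xist, made from the inactive X chromosome, read 0.35 in replicate 1 and -6.82 in replicate 2, and the Y-linked helicase gene Ddx3y read -5.81 and 1.36. The Gr controls were split the same way, with Xist at 0.27 and -7.10. Both KSL arrays resembled Gr replicate 1, with Xist at 2.43 and 2.69 and Ddx3y at -6.36 and -6.40. All KSL arrays lay on row 1 of the slide and all Gr arrays on row 2, so cell type and slide row cannot be told apart.

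The KSL and Gr cells of Vav-Etv2 marrow differed in 24.2% of the features measured. Of 23227 features, 5632 passed an adjusted p under 0.05 in limma. Of these, 2422 (10.4% of all tested) were higher in KSL cells and 3210 (13.8%) were higher in Gr cells. Before adjustment 9553 features had a p under 0.05, where 1161 are expected by chance. More than 4-fold differences made up 1680 of the KSL calls and 1827 of the Gr calls, and more than 16-fold differences made up 442 and 440. In 800 of the KSL calls no Gr array was well above background, and in 486 of the Gr calls no KSL array was. The median difference over all features was -0.10 log2 units, and it was -0.24 when arrays were scaled on their medians. With that scaling 1939 features were higher in KSL cells and 3772 in Gr cells, so that KSL cells held 34.0% of the calls in place of 43.0%. Leaving out a single array left between 1106 and 3484 KSL calls and between 1091 and 3793 Gr calls. The fewest KSL calls came without KSL Vav-Etv2 replicate 1 (1106 and 1138) and the fewest Gr calls without Gr Vav-Etv2 replicate 1 (1304 and 1091). In these bulk samples fewer cells of a type and less RNA per cell cannot be told apart.

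**Figure D1:**
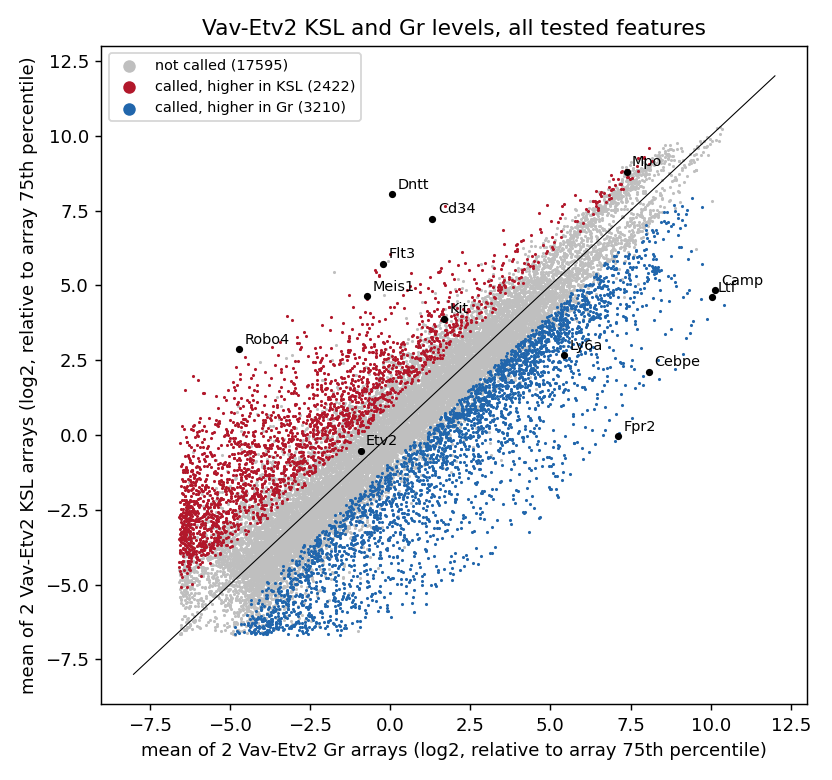
Mean level in the 2 Vav-Etv2 Gr arrays (horizontal) against the mean level in the 2 Vav-Etv2 KSL arrays (vertical), both as log2 signal relative to the array's 75th percentile, for all 23227 tested features, with the line of equal level. Red points (2422) are called higher in KSL cells and blue points (3210) higher in Gr cells. Cd34, Flt3 and Dntt lie far above the line, Ltf, Camp and Fpr2 far below it, and Etv2 lies near it.

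Of the measured genes of the sort gates, Kit, Itgam and Ly6c1 were found on the side of their gate, with Ly6a as the exception. The list of sort markers also held surface genes that neither gate uses, such as Cd34. Of 8 measured sort markers, 3 were higher in KSL cells and 4 in Gr cells, beside 10.4% and 13.8% of all features. Kit, the stem cell factor receptor that gives the gate its c-Kit, read 3.45 and 4.32 in KSL cells and 1.95 and 1.42 in Gr cells. The groups did not overlap, and Kit was 4.6-fold higher in KSL cells (limma adjusted p = 0.00930). Cd34, a surface sialomucin of progenitors and endothelium read at chr1:196787392-196787451 of mm9, stood at 7.31 and 7.14 in KSL cells against 0.93 and 1.71. It was 59.7-fold higher (limma adjusted p = 0.00173). Slamf1, a surface receptor of stem cells, was above background only in the KSL arrays, by at least 5.82-fold (limma adjusted p = 0.0140). Without KSL Vav-Etv2 replicate 1 or 2, Slamf1 was not called.

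The exception was Ly6a, which encodes Sca-1, the second positive marker of the KSL gate. It read 2.26 and 3.09 in KSL cells and 6.33 and 4.50 in Gr cells (chr15:74825553-74825612). Both Gr arrays were above both KSL arrays, and the difference was -2.74 (SE 0.76, 6.69-fold higher in Gr cells, limma adjusted p = 0.0419). The control arrays lay the same way round, at 3.65 and 3.59 in KSL and 6.18 and 4.48 in Gr cells. The call was lost without KSL Vav-Etv2 replicate 1 (limma adjusted p = 0.179), without KSL Vav-Etv2 replicate 2 (0.0844), without Gr Vav-Etv2 replicate 1 (0.192) and without either KSL control (0.0766). With all arrays of both groups kept, the call was also lost in other settings. These were quantile normalization (limma adjusted p = 0.0543), no filter on dim probes (0.0648) and the 4 Vav-Etv2 arrays alone (0.0601). Ly6a has close relatives in the Ly6 family, and whether the probe also binds their RNA was not tested.

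Among the Gr markers, Itgam, which encodes the Mac-1 integrin alpha chain, read 7.20 and 5.95 in Gr cells and 4.54 and 4.59 in KSL cells. All 3 of its probes were lower in both KSL arrays, with differences of -2.01, -3.97 and -5.19. The probe used was called (limma adjusted p = 0.0391), but not without either KSL Vav-Etv2 array, Gr Vav-Etv2 replicate 1 or either KSL control. Ly6c1, of the Ly6 family that anti-Gr-1 antibodies partly recognise, was 16.3-fold higher in Gr cells (limma adjusted p = 0.00601). The granulocyte marker Ly6g, of the same family, was not measured. Ptprc, the CD45 phosphatase of all white cells, was 7.02-fold higher in Gr cells (limma adjusted p = 0.00649). Cd48, a ligand carried by most committed progenitors, read 4.70 and 4.89 in KSL cells and 3.62 and 5.14 in Gr cells, and the groups overlapped (limma adjusted p = 0.75).

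Receptors of stem and progenitor cells set the KSL arrays apart. Of 15 measured surface genes, 12 were higher in KSL cells and 3 in Gr cells, beside 10.4% and 13.8% of all features. The median difference was 4.44 log2 units against -0.10 over all features. Of these 15 calls, 7 were kept in every alternative in which the gene was tested. Flt3, the cytokine receptor of multipotent and lymphoid-primed progenitors, read 5.42 and 6.04 in KSL cells and -0.67 and 0.25 in Gr cells (chr5:148142576-148142635). The groups did not overlap, and Flt3 was 61.5-fold higher in KSL cells (SE 0.59 on a log2 difference of 5.94, limma adjusted p = 0.00219). The other probes of Flt3 gave differences of 6.41 and 1.30, the same in direction and unequal in size. Il7r, the receptor of a lymphoid growth factor, was 24.4-fold higher (limma adjusted p = 0.00292). Procr, the protein C receptor used to enrich stem cells, read -0.08 and 0.29 against -3.63 and -3.37 (12.2-fold, limma adjusted p = 0.00858), and lost its call without Gr Vav-Etv2 replicate 1. Cd93, a glycoprotein of early progenitors, was 4.16-fold higher (limma adjusted p = 0.0162), a call lost without either KSL Vav-Etv2 array or Gr Vav-Etv2 replicate 1.

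A pair of genes in that list besides Ly6a lay on the Gr side. Prom1, which encodes the membrane protein prominin and marks human stem cells, read 4.62 and 4.49 in Gr cells and -2.96 and 0.06 in KSL cells. It was 64.2-fold higher in Gr cells (SE 0.87, limma adjusted p = 0.00580) and kept its call in every alternative run. Cd9, a tetraspanin of platelets and stem cells, was 10.3-fold higher in Gr cells (limma adjusted p = 0.00816), a call lost without KSL Vav-Etv2 replicate 1.

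Read by 1 probe per gene, the transcription factors of stem and progenitor cells were higher in KSL cells or did not pass the test. Of 25 measured, 14 were higher in KSL cells and 0 in Gr cells, beside 10.4% and 13.8% of all features. The median difference was 2.31. With each probe tested by itself, 18 of 36 probes were higher in KSL cells and 1 was higher in Gr cells. With dim signals raised to each array's lowest signal above background the median was 2.16. The homeobox gene Meis1 read 4.65 and 4.62 in KSL cells and -1.04 and -0.38 in Gr cells, a 40.8-fold difference (limma adjusted p = 0.00188). Its partner Hoxa7 read 3.24 and 3.63 against -2.92 and -2.45 (69.5-fold, limma adjusted p = 0.00133). Hoxa9 was 9.01-fold higher, and Hoxa5 and Hoxa10, not above background in either Gr array, were at least 9.61-fold and 2.82-fold higher. The haematopoietic regulators Sox4 (38.5-fold), Gfi1b (22.6-fold), Zfpm1 (18.3-fold), Msi2 (17.9-fold) and Tal1 (11.7-fold) were called in the same direction. Mycn, a growth-promoting MYC family factor, stood at least 84.4-fold above Gr cells (limma adjusted p = 0.00133). Smaller differences were called for Bcl11a (4.48-fold), Myb (4.10-fold) and Lmo2 (2.28-fold), and all 3 calls depended on single arrays. All were lost without KSL Vav-Etv2 replicate 2. That of Bcl11a was also lost without KSL Vav-Etv2 replicate 1, Gr Vav-Etv2 replicate 1 or either KSL control.

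Several regulators used to define long-term stem cells were not called. Mecom, which maintains stem cells, was above background in KSL Vav-Etv2 replicate 2 only, at -3.29, and read -6.04 in replicate 1. Hoxb5 was not above background in any of the 4 arrays. Hlf, a leucine zipper factor of stem cells, read 0.45 and 2.64 in KSL cells and -0.34 and -1.03 in Gr cells, which did not overlap (limma adjusted p = 0.0653). Gata2, which sustains progenitors and mast cells, read 2.06 and 2.93 against -3.65 and 0.02 (limma adjusted p = 0.0584). Runx1, a founding factor of blood stem cells, overlapped between groups and differed by -0.07 log2 units (95% interval -0.79 to 0.66, limma adjusted p = 0.886). In the control arrays the KSL minus Gr differences of Mecom, Hoxb5 and Hlf were 2.92, 4.96 and 5.06, and in the Vav-Etv2 arrays they were 1.28, 1.14 and 2.23. The 1.14 of Hoxb5 lies between signals that were not above background. The 1.28 of Mecom became 0.48 with dim signals raised to each array's lowest signal above background. No list member had an adjusted interaction p under 0.05 in limma, so these differences between genotypes were not called.

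**Figure D2:**
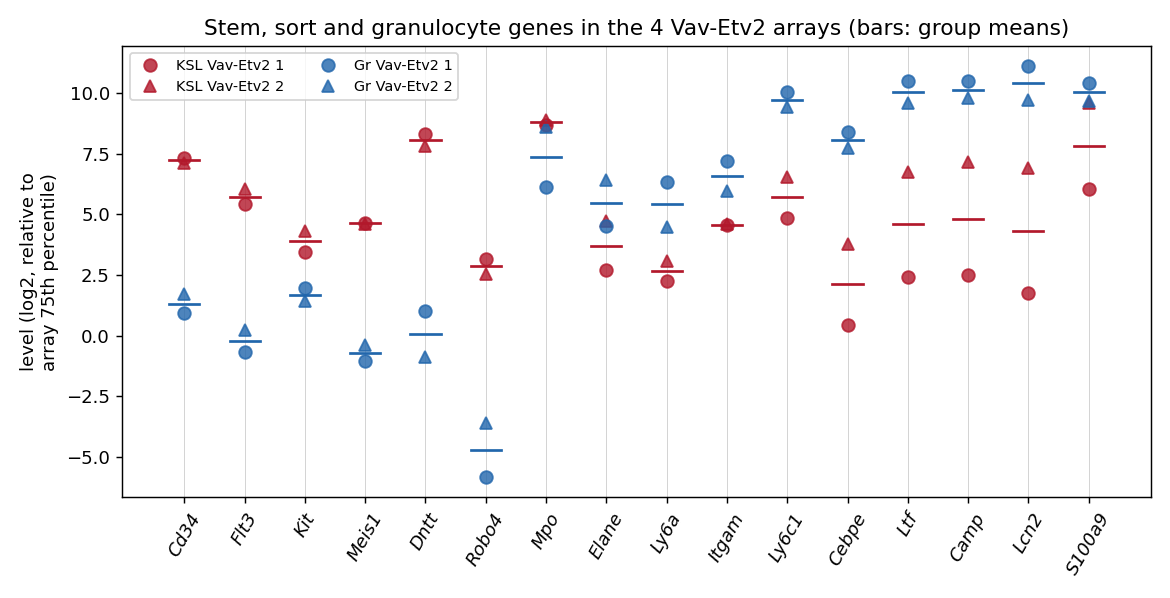
Level of 16 genes in each of the 4 Vav-Etv2 arrays (vertical, log2 signal relative to the array's 75th percentile), with red for KSL, blue for Gr, circles for replicate 1, triangles for replicate 2 and a bar at each group mean. Cd34, Flt3 and Meis1 lie higher in both KSL arrays than in both Gr arrays. Ltf, Camp and Lcn2 read far lower in KSL replicate 1 than in KSL replicate 2, and Ly6a lies higher in both Gr arrays.

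Genes of early lymphoid development were active in the KSL arrays. Of 14 measured lymphoid priming genes, 9 were higher in KSL cells and 1 in Gr cells, beside 10.4% and 13.8% of all features. The median difference was 2.63, and 6 of the 10 calls were kept in every alternative in which the gene was tested. Dntt, the terminal transferase that adds bases at antigen receptor joints, read 8.29 and 7.81 in KSL cells and 1.00 and -0.86 in Gr cells (chr19:41133936-41133995). It had the largest difference, 253-fold, among the 968 KSL calls with a gene symbol that were above background on all 4 arrays (limma adjusted p = 0.00138). The recombinase genes Rag1 (1.98 and 2.52 against -0.88 and -3.44) and Rag2 (1.73 and 1.60 against -2.67 and -6.89) were 21.2-fold and 87.1-fold higher. Gr replicate 2 was not above background for Rag2, and raising it to the array's lowest signal above background gave 40.6-fold. Both lost their calls without KSL Vav-Etv2 replicate 1, and Rag1 also without replicate 2. Lax1, an adaptor of lymphocyte receptors, stood at least 21.1-fold above Gr cells (limma adjusted p = 0.000982). Notch1, the receptor that directs T cell commitment, lay the other way, at -0.77 and -0.26 in KSL cells and 2.86 and 2.30 in Gr cells (8.56-fold higher in Gr cells, limma adjusted p = 0.00275).

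The calls of B lineage genes depended on single arrays. Of 17 measured, 8 were higher in KSL cells and 0 in Gr cells, beside 10.4% and 13.8% of all features. The median difference was 2.65. Vpreb1 and Igll1, which form the surrogate light chain of the pre-B cell receptor, read 4.82 and 4.87, and 2.33 and 2.62, in KSL cells. In Gr cells they read 1.94 and -0.88, and -0.18 and -3.54, so Gr replicate 1 held more of both than Gr replicate 2. The differences were 19.9-fold (limma adjusted p = 0.0158) and 20.2-fold (0.0254). Without KSL Vav-Etv2 replicate 1 the list had 1 call, without Gr Vav-Etv2 replicate 2 it had 5 and without Gr Vav-Etv2 replicate 1 it had 12. The summed signal of the list, the log2 of its members' added signals relative to the 75th percentile, was 7.31 and 7.81 in KSL cells and 5.76 and 3.64 in Gr cells. Ebf1, which commits cells to the B lineage, read 1.48 and 2.18 against -0.15 and -3.95 (limma adjusted p = 0.0509), and Ms4a1, which encodes CD20 of mature B cells, overlapped between groups.

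Of 21 measured T and NK cell genes, 9 were higher in KSL cells and 1 in Gr cells, beside 10.4% and 13.8% of all features. The list had 8 KSL calls with dim signals raised to the floor and 6 with normexp background correction. Of the 10 calls, 5 were kept in every alternative in which the gene was tested. Cd8a and Bcl11b were above background in KSL replicate 1 alone of the 4 arrays. Their folds of 3.67 and 4.11 became 1.10 and 1.51 at the floor. Lck, a kinase of T cell receptor signalling, read 3.84 and 4.02 against -0.84 and -1.03 and was 29.2-fold higher (limma adjusted p = 0.000982). Gata3 (19.1-fold, or 12.6-fold with its dim Gr array raised to the floor) and Thy1 (7.68-fold) were called in the same direction. The components of the mature T cell receptor complex did not follow. Cd3e and Cd3g overlapped between groups, and Cd3d read 1.70 and 0.09 in Gr cells and -4.76 and -2.13 in KSL cells, where replicate 1 was not above background (20.3-fold higher in Gr cells, limma adjusted p = 0.0293). Cd3d lost its call without KSL Vav-Etv2 replicate 1, Gr Vav-Etv2 replicate 1 or either KSL control.

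Endothelial genes, which early stem cells share with vessel walls and which Etv2 directs in the embryo, were higher in KSL cells. Of 31 measured, 18 were higher in KSL cells and 0 in Gr cells, beside 10.4% and 13.8% of all features. The median difference was 4.36 (4.04 with dim signals raised to the floor). The KSL replicates differed: the summed signal of the list was 9.40 in replicate 1 and 8.21 in replicate 2, against 4.91 and 4.20 in the Gr arrays and 8.05 and 8.11 in the KSL controls. Robo4, a guidance receptor of endothelium and stem cells, was even between replicates, at 3.16 and 2.56, and read -5.81 and -3.59 in Gr cells (188-fold, limma adjusted p = 0.00182). Gr replicate 1 was not above background for it, and raised to the floor it gave 96.9-fold. Egfl7, a secreted factor of vessel growth, read 8.46 and 6.84 against 2.23 and 1.20 (61.5-fold, limma adjusted p = 0.00219). Eng, a TGF-beta co-receptor, was 12-fold higher and Plvap, of endothelial diaphragms, 13.6-fold. Ramp2, a subunit of the adrenomedullin receptor, read 3.29 and -0.30 in KSL cells and was not above background in Gr cells (at least 55.4-fold, limma adjusted p = 0.00499).

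Other endothelial genes were carried mainly by KSL Vav-Etv2 replicate 1. Cdh5, the adhesion molecule of endothelial junctions, read 3.53 in replicate 1 and -1.59 in replicate 2, against -1.84 and -4.96 in Gr cells (limma adjusted p = 0.0951). Flt1, a VEGF receptor, read 3.77 and -1.29 against -0.48 and -0.47, and Sox18, a vascular transcription factor, 3.05 and -1.50 against -2.60 and -6.93. In all these the higher KSL array was replicate 1. Kdr, the main VEGF receptor and a target of Etv2 in the embryo, read 3.38 and 3.13 in KSL cells and 3.72 and 2.95 in Gr cells, with a difference of -0.08 (SE 0.48, 95% interval -1.23 to 1.07, limma adjusted p = 0.914). Without KSL replicate 1 the list had 11 calls and a median of 3.11, without KSL replicate 2 it had 21 and 5.95, and without Gr replicate 2 it had 10 KSL calls and 1 Gr call.

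Single stroma and imprinted genes split the KSL replicates. Summed signal of the bone marrow stroma list was 7.16 in KSL Vav-Etv2 replicate 1 and 3.64 in replicate 2, with 3.49 and 2.69 in the Gr arrays and 3.71 and 3.45 in the KSL controls. That sum was carried mainly by 1 gene, Sparc, a matrix protein of bone and vessels that read 7.08 and 2.29 in KSL cells. The median difference between the KSL replicates over the list was -0.08, and the growth-linked imprinted genes Mest (3.48 and -4.03) and H19 (3.07 and -2.62) were split likewise. None of these passed the test (limma adjusted p = 0.0687, 0.169 and 0.197). Of 9 measured stroma genes, 2 were higher in KSL cells and 3 in Gr cells, beside 10.4% and 13.8% of all features. The defining collagen gene Col1a1 was not above background in either KSL array, and it was at least 9.33-fold higher in Gr cells (limma adjusted p = 0.00920), a call lost without KSL Vav-Etv2 replicate 1. The part that other cells in the sort play in these values was not tested. Meg3, an imprinted non-coding RNA, read -4.34 and -3.77 in KSL cells and -2.35 and -2.60 in Gr cells (2.99-fold higher in Gr cells, limma adjusted p = 0.0132), and lost its call without KSL or Gr Vav-Etv2 replicate 1. In the controls it was called the other way round (difference 1.33, limma adjusted p = 0.0181). It was the 1 feature called in opposite directions in the 2 genotypes, and the test of the interaction itself gave -2.92 (SE 0.43, limma adjusted p = 0.5).

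Of 15 measured megakaryocyte and platelet genes, 7 were higher in KSL cells and 2 in Gr cells, beside 10.4% and 13.8% of all features. Gp5, a subunit of the platelet receptor for von Willebrand factor, was at least 13.1-fold higher in KSL cells (limma adjusted p = 0.00318). Itga2b, the platelet integrin chain, read 4.80 and 1.51 against -1.22 and -1.36 (21.8-fold, limma adjusted p = 0.0242), and lost its call without KSL Vav-Etv2 replicate 1 or either Gr Vav-Etv2 array. Pf4, a platelet chemokine, read 6.68 and 4.96 in KSL cells and 3.11 and -3.24 in Gr cells, a wide split between the Gr replicates, and did not pass (limma adjusted p = 0.0741). Without KSL replicate 1 the list had 2 KSL calls, and without Gr replicate 2 it had 3. Of 16 measured erythroid genes, 4 were higher in KSL cells and 0 in Gr cells. Gata1, the main erythroid and megakaryocyte factor (11.6-fold, limma adjusted p = 0.00226), and Car2, a carbonic anhydrase (19.2-fold, 0.00182), kept their calls in every alternative. The haemoglobin genes Hba-a1 and Hbb-bt, whose copies share sequence, did not pass.

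Of 11 measured primary granule genes, 1 was higher in KSL cells and 2 in Gr cells, shares near those of all features (10.4% and 13.8%). The median was -0.45, and -1.39 without Gr Vav-Etv2 replicate 1. Mpo, myeloperoxidase, read 8.70 and 8.89 in KSL cells and 6.12 and 8.62 in Gr cells, a difference of 1.42 (SE 0.96, 95% interval -0.86 to 3.70, limma adjusted p = 0.299). Elane, neutrophil elastase, read 2.70 and 4.71 against 4.52 and 6.41 (limma adjusted p = 0.291), and Prtn3 and Ctsg, related serine proteases, also overlapped or fell short. In the Gr arrays these genes were higher in replicate 2. The lysozyme gene Lyz2, which later stages also use, read 8.57 and 8.97 in Gr cells and 2.66 and 4.41 in KSL cells (37.7-fold higher in Gr cells, limma adjusted p = 0.00295).

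Secondary and tertiary granule genes were higher in Gr cells almost without exception. Of 18 measured, 17 were higher in Gr cells and 0 in KSL cells, beside 13.8% and 10.4% of all features. The median difference was -6.05. Arg1, arginase, was the member not called. Lactoferrin (Ltf) read 10.48 and 9.60 in Gr cells and 2.43 and 6.76 in KSL cells (43.6-fold, limma adjusted p = 0.0244). The antimicrobial peptide gene Camp read 10.51 and 9.78 against 2.51 and 7.15 (39.8-fold, 0.0305). Ngp, a cathelicidin-related granule protein, read 10.37 and 9.40 against 1.5 and 6.22 (65.1-fold, 0.0228), and Lcn2, a siderophore-binding lipocalin, read 11.10 and 9.71 against 1.74 and 6.91 (67.4-fold, 0.0305). In 17 of 18 list members both Gr arrays lay above both KSL arrays, beside 37.6% of all features, and KSL replicate 1 lay far below KSL replicate 2. The summed signal of the list was 5.53 in KSL replicate 1 and 9.39 in replicate 2, against 9.11 and 9.24 in the KSL controls and 13.38 and 12.38 in the Vav-Etv2 Gr arrays. Replicate 2 therefore lay at the level of the controls and replicate 1 below it. All 4 of these genes lost their calls without either Vav-Etv2 Gr array. The list's calls fell to 5 without Gr Vav-Etv2 replicate 1 and to 12 without Gr Vav-Etv2 replicate 2, and stayed at 17 without either KSL Vav-Etv2 array, where the median was -4.32 and -7.72.

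Because these genes were higher together, the 250 bases before the start of 4 of them are printed, from RefSeq on GRCm38.p6, in the sense of the gene. They were chosen after their values were seen. Capitals mark each match to TTGCNNAA, the core of the sequence bound by C/EBP factors, or its reverse complement.
Ngp, plus strand, chr9:110419558-110419807: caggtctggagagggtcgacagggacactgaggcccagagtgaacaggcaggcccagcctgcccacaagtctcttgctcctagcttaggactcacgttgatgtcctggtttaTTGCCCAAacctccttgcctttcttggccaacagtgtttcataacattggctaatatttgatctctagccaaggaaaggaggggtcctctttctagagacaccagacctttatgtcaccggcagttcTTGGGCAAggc
Ltf, plus strand, chr9:111019042-111019291: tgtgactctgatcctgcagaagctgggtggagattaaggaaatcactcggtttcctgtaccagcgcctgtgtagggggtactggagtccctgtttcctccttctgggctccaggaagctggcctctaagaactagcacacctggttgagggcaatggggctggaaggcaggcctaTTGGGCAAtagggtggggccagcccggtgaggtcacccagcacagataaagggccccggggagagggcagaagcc
Lcn2, minus strand, chr2:32387740-32387989: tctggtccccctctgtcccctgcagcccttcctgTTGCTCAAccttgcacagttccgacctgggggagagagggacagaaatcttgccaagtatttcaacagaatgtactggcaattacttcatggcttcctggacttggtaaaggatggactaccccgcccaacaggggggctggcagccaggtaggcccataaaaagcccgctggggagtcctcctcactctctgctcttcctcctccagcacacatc
Camp, minus strand, chr9:109849457-109849706: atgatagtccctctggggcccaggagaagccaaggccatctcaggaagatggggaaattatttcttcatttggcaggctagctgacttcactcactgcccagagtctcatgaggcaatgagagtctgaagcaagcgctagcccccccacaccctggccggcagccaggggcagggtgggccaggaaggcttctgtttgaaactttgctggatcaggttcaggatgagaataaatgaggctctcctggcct
Ngp held 2 matches, Ltf and Lcn2 held 1 each and Camp held 0 in this window. Of 14 list members with a promoter in the table, 6 (42.9%) held a match on either strand. Among all 27025 promoters 10.8% held one, among tested features 9.69%, among KSL calls 10.2% and among Gr calls 11.9%. The ETS core GGAAGT was found in 22.2% of all promoters, 26.2% of those of tested features, 22.3% of those called higher in KSL cells and 28.1% of those called higher in Gr cells, and in 7 of the 14 granule list promoters (50%). These matches describe letters in a short window and not binding.

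Proteins of the mature neutrophil cytoplasm and surface lay on the Gr side as well. Of 16 measured cytosolic genes, 14 were higher in Gr cells and 0 in KSL cells, beside 13.8% and 10.4% of all features. The median difference was -5.64. Anxa1, an annexin that restrains inflammation, read 9.58 and 8.71 in Gr cells and 3.60 and 5.62 in KSL cells (23.2-fold, limma adjusted p = 0.00692). Retnlg (62.1-fold), Wfdc21 (103-fold) and the stefin genes, whose copies share sequence, were also called. S100a9 and S100a8, the calprotectin subunits, read 10.40 and 9.65, and 9.86 and 9.19, in Gr cells. In KSL cells they read 6.04 and 9.60, and 4.09 and 8.36, and neither passed the test (limma adjusted p = 0.163 and 0.0930). Of the 2 KSL Vav-Etv2 arrays, replicate 2 read closer to the Gr arrays for these genes. The summed signal of the list was 7.12 in KSL replicate 1 and 10.36 in replicate 2, against 10.35 and 10.24 in the KSL controls. It was 12.57 and 11.67 in the Vav-Etv2 Gr arrays. Replicate 2 thus lay at the level of the KSL controls, and replicate 1 was the KSL array that stood apart. The list had 6 calls without Gr Vav-Etv2 replicate 1 and 16 without KSL Vav-Etv2 replicate 2.

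Of 25 measured chemotactic and innate receptors, 23 were higher in Gr cells and 0 in KSL cells, beside 13.8% and 10.4% of all features. The median difference was -4.88. The formyl peptide receptors Fpr1 and Fpr2 were 113-fold and 142-fold higher in Gr cells (limma adjusted p = 0.0157 and 0.0192), and Cxcr2, the receptor for neutrophil chemokines, read 6.06 and 4.47 against -1.72 and 0.96 (50.2-fold, 0.00913). These 3 lost their calls without Gr Vav-Etv2 replicate 1, and the list then had 13 calls. Clec7a, the beta-glucan receptor (23.4-fold), Tlr2 (11.2-fold) and Tlr4 (8.35-fold), which sense bacterial products, kept theirs in every alternative run. The receptor of the granulocyte growth factor, Csf3r, differed little, at 8.15 and 7.70 in Gr cells and 6.94 and 6.87 in KSL cells. Its groups did not overlap (2.03-fold, limma adjusted p = 0.0656). All 6 measured genes of the NADPH oxidase, which makes the respiratory burst, were higher in Gr cells, from 5.73-fold for Rac2 to 63.6-fold for Cybb, the catalytic subunit (limma adjusted p = 0.0187 and 0.00775).

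Of 12 measured transcription factors of granulocytes, 6 were higher in Gr cells and 0 in KSL cells, beside 13.8% and 10.4% of all features. Cebpe, which drives secondary granule genes, read 8.40 and 7.75 in Gr cells and 0.43 and 3.79 in KSL cells (62.3-fold, limma adjusted p = 0.00889), a call lost without Gr Vav-Etv2 replicate 1. Cebpb (14.9-fold), Cebpd (14.0-fold), the retinoic acid receptor Rara (9.08-fold) and Spi1, the PU.1 factor of all myeloid cells (5.01-fold), kept their calls in every alternative run. Cebpa and Gfi1, which act early in the lineage, were not called (differences -0.86 and -0.83, SE 0.47 and 0.39, limma adjusted p = 0.211 and 0.155), and Irf8, of monocytes and dendritic cells, overlapped between groups.

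The largest differences over all named features, list members included, were taken by size. Among features above background on all 4 arrays, the KSL side was led, after Dntt, by the myosin light chain Myl10 (148-fold), Hoxa7, the protease inhibitor genes Ctla2a and Ctla2b (67.2-fold and 62.1-fold, near-identical genes), the mucin Muc13 (63.0-fold), Art4 (62.8-fold), Flt3, Egfl7 and the thromboxane receptor Tbxa2r (61.1-fold). The Gr side was led by the chitinase-like Chil1 (149-fold), Fpr2, the integrin chain Itgb2l (133-fold), the small GTPase Rhou (126-fold), the collagenase Mmp8 (125-fold), Sirpb1b and Sirpb1a (118-fold and 116-fold, near-identical genes), Fpr1, Stfa2 (111-fold) and the neutrophil antigen Cd177 (109-fold). All 10 KSL genes kept their calls in every alternative in which they were tested, and all 10 Gr genes lost theirs without Gr Vav-Etv2 replicate 1. Each of the Gr genes also read lower in KSL replicate 1 than in KSL replicate 2. Rhou, for example, read -3.99 and 0.41 in KSL cells and 5.60 and 4.77 in Gr cells.

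A further set was above background in only 1 of the cell types of Vav-Etv2 marrow. The brightest of 482 such named genes in KSL cells were Tmem121 (at least 94.7-fold), Mycn, the neurofilament gene Nefh (at least 80.7-fold), Nsg2 (at least 77.2-fold), Mn1 (at least 70.7-fold), the lymphocyte receptors Cd27 (at least 55.6-fold) and Cd96 (at least 59.2-fold), Mex3a (at least 55.9-fold), Ramp2 and the potassium channel subunit Kcng1 (at least 52.3-fold). Kcng1 read 1.47 and 1.36 in KSL cells and -5.84 and -5.78 in Gr cells, a tight pattern in both groups (limma adjusted p = 0.000982). In Gr cells the brightest of 176 were the lipid droplet gene Plin5 (at least 46.9-fold), Mfsd7a (at least 24.2-fold), the enkephalin precursor Penk (at least 23.4-fold), the granule glycoprotein Olfm4 (at least 21.7-fold), Fpr-rs6, Tarm1, the interleukin 1 antagonist Il1rn, Clec4b2, Krtap21-1 and the scavenger receptor Msr1 (at least 15.2-fold). Plin5 read 1.72 and 0.54 in Gr cells and -6.24 and -5.08 in KSL cells. Among the control arrays, Penk and Olfm4 were above background in both KSL arrays, and Fpr-rs6 and Mfsd7a in 1 of them. Mycn, Nefh, Cd27 and Cd96 were above background in the array labelled Gr control 2. Mfsd7a, Krtap21-1 and Msr1 lost their calls without KSL Vav-Etv2 replicate 1.

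Cytokine receptors divided evenly. Of 17 measured, 6 were higher in KSL cells (among them Flt3, Il7r, Il1r1, Epor and Kit) and 6 in Gr cells (Csf2ra, Csf2rb, Csf2rb2, Il6ra, Csf1r and Ifngr1). Over all features the shares were 10.4% and 13.8%. Il1r1, the signalling receptor of interleukin 1, read 0.55 and 1.28 in KSL cells and -3.78 and -3.27 in Gr cells (21.8-fold, limma adjusted p = 0.00133). Csf2ra, the alpha chain of the GM-CSF receptor, read 8.42 and 8.01 in Gr cells and 4.13 and 5.05 in KSL cells (12.3-fold, limma adjusted p = 0.00309). Csf1r, the M-CSF receptor, was 4.30-fold higher in Gr cells (0.00571). The call of Ifngr1 was lost when any 1 of the 4 Vav-Etv2 arrays was left out. The ETS factors, the family to which Etv2 belongs, had 17 measured members (median 0.39). Of these 1, Elf1, was higher in KSL cells and 1, Spi1, in Gr cells, beside 10.4% and 13.8% of all features. Both KSL arrays lay above both Gr arrays for 6 of the 17 and below them for 4, beside 32.2% and 37.6% of all features. Elf1 lost its call when any 1 of the 4 Vav-Etv2 arrays was left out. Fli1 and Erg, family members of blood and endothelium, differed by -0.76 and 0.71 and did not pass (limma adjusted p = 0.109 and 0.443).

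No DNA replication gene among 26 measured and no mitosis gene among 22 was called by limma, with medians of 1.16 and -0.17. Before adjustment 5 and 0 of them had a p under 0.05, and limma with an intensity trend called 1 and 0. For 19 of the 26 replication genes both KSL arrays lay above both Gr arrays, beside 32.2% of all features. The helicase subunit Mcm6, for example, read 7.66 and 7.46 against 4.85 and 6.67 (limma adjusted p = 0.104). The summed replication signal was 8.45 in Gr replicate 1 and 9.56 in Gr replicate 2, so the Gr replicates were split, and without Gr Vav-Etv2 replicate 2 the list had 4 KSL calls rather than 0. Without both Gr replicate 2 arrays, where the spread comes from the KSL arrays alone and calls rise over all features (5563 and 5157), it had 22 KSL calls and a median of 1.96. The proliferation antigen gene Mki67 read 6.41 and 6.56 in KSL cells and 6.57 and 7.26 in Gr cells.

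The D cyclins, which start the cell cycle with their kinases, were used differently by the cell types. Ccnd2 read 3.99 and 3.88 in KSL cells and -0.35 and -0.71 in Gr cells (22.1-fold, limma adjusted p = 0.000982), and Ccnd1 read 3.29 and 3.11 against -0.59 and -0.65 (14.1-fold, 0.00108). Ccnd3 lay the other way, at 6.69 and 6.62 against 8.48 and 7.97 (2.97-fold higher in Gr cells, 0.0245), a call lost without either Vav-Etv2 KSL array, Gr replicate 1 or either KSL control. Cdk6, a kinase that pairs with these cyclins, was 7.72-fold higher in KSL cells and the inhibitor Cdkn2d 6.73-fold higher in Gr cells (limma adjusted p = 0.00338 and 0.00517). Cdkn1c, an inhibitor linked to stem cell quiescence, differed by 0.60 (SE 0.29, limma adjusted p = 0.171), and by 2.18 in the controls.

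Of 24 measured ribosome biogenesis genes, 10 were higher in KSL cells and 0 in Gr cells, beside 10.4% and 13.8% of all features. The median difference was 2.33. Myc, which drives their transcription, read 3.68 and 4.09 against -0.91 and 0.61 (16.4-fold, limma adjusted p = 0.0192). Npm1 and Ncl, abundant nucleolar proteins, were 4.91-fold higher each (0.0237 and 0.0212). For 22 of 24 of these genes and for 22 of 22 cytosolic ribosomal protein genes both KSL arrays lay above both Gr arrays, beside 32.2% of all features. The ribosomal protein genes had a median of 1.03 and 3 calls, a share near that of all features. No call in either list was kept in every alternative. Both lists had 0 limma calls without KSL Vav-Etv2 replicate 1, KSL Vav-Etv2 replicate 2 or Gr Vav-Etv2 replicate 1, and 20 and 9 without either Gr control. Without both Gr replicate 2 arrays they had 22 and 18. Their medians stayed above 0 in these alternatives. No respiratory chain gene among 21 measured was called (median 0.23), and 0 had an unadjusted p under 0.05 or were called with an intensity trend. Without Gr Vav-Etv2 replicate 2 there was 1 call, and without both Gr replicate 2 arrays there were 7 (median 0.61 in both). The median was 0.60 with quantile normalization and -0.03 without Gr Vav-Etv2 replicate 1.

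Of 23 measured glycolysis and hypoxia genes, 8 were higher in Gr cells and 2 in KSL cells, beside 13.8% and 10.4% of all features. The median difference was -1.09. The hexokinase genes Hk2 and Hk3, whose products start glycolysis, were 4.87-fold and 7.75-fold higher in Gr cells (limma adjusted p = 0.00506 and 0.00443), and Pfkfb4, which raises glycolytic flux, was 24.8-fold higher (0.00413). Pdk1, a kinase that holds pyruvate out of mitochondria, was 8.22-fold higher in KSL cells (0.0122), a call lost without KSL Vav-Etv2 replicate 1. Between 3 and 10 Gr calls remained in this list when 1 array was left out.

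Beside the interferon, inflammation and adhesion lists, 13.8% of all features were higher in Gr cells and 10.4% in KSL cells. Of 24 measured interferon response genes, 10 were higher in Gr cells and 1, Ifi44, in KSL cells. The Gr calls were 4 without KSL Vav-Etv2 replicate 1, 5 without KSL replicate 2 or Gr replicate 1, and 18 without both Gr replicate 2 arrays. Oas2, which senses double-stranded RNA, read 6.11 and 5.12 in Gr cells and 1.81 and 2.67 in KSL cells (10.4-fold, limma adjusted p = 0.00478). Ifi44 read -0.08 and 0.95 in KSL cells and -2.44 and -2.99 in Gr cells (8.88-fold, 0.00429). Of 22 measured NF-kB and inflammation genes, 13 were higher in Gr cells and 1, the chemokine Ccl4, in KSL cells. The Ccl4 call held in 8 of 20 alternatives. It was lost with median scaling, with the replicate number as a block and with the 4 Vav-Etv2 arrays alone. It was also lost without KSL Vav-Etv2 replicate 2, either Gr Vav-Etv2 array or any control array. Il1b, the precursor of interleukin 1 beta, read 6.39 and 4.31 against -2.48 and 0.62 (77.8-fold, 0.0125), and lost its call without KSL or Gr Vav-Etv2 replicate 1. Without KSL Vav-Etv2 replicate 1 there were 2 Gr calls in the inflammation list, without Gr Vav-Etv2 replicate 1 there was 1 and without KSL Vav-Etv2 replicate 2 there were 6. Of 18 measured adhesion and homing genes, 8 were higher in Gr cells and 3 in KSL cells, and the Gr calls were 2 without KSL or Gr Vav-Etv2 replicate 1 and 4 without KSL replicate 2. Itgb2, the beta chain shared by leukocyte integrins, was 21.8-fold higher in Gr cells (0.00352).

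Markers of other myeloid cells were present in the Gr arrays. Of 22 measured monocyte and macrophage genes, 8 were higher in Gr cells and 0 in KSL cells, beside 13.8% and 10.4% of all features. Among the 8 were Adgre1, the F4/80 antigen (26.8-fold, limma adjusted p = 0.00381), and the Fc receptor gene Fcgr1 (20.6-fold, 0.00758). The summed signal of that list was 8.46 and 9.41 in the Gr arrays and 7.15 and 7.61 in the KSL arrays, and C1qc, of tissue macrophages, read 2.95 in Gr replicate 1 and -0.61 in replicate 2. Of 18 measured mast cell, basophil and eosinophil genes, 4 were higher in Gr cells and 0 in KSL cells, beside 13.8% and 10.4% of all features. The 4 were the eosinophil ribonucleases Ear1 and Ear2, the histidine decarboxylase Hdc and the eotaxin receptor Ccr3, and the first 2 share sequence. No call of this list was kept in every alternative in which the gene was tested. The list had 2 calls without KSL Vav-Etv2 replicate 1 and 0 without Gr Vav-Etv2 replicate 1. The basophil proteases Mcpt8 (-1.15 and 4.09) and Prss34 (-0.15 and 4.90) split the Gr replicates, and eosinophil Prg2 split the KSL replicates (-3.67 and 3.85). The part of such cells in the results was not tested. Of 14 measured dendritic and MHC class II genes 1 was called, Flt3, beside 24.2% of all features.

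**Figure D3:**
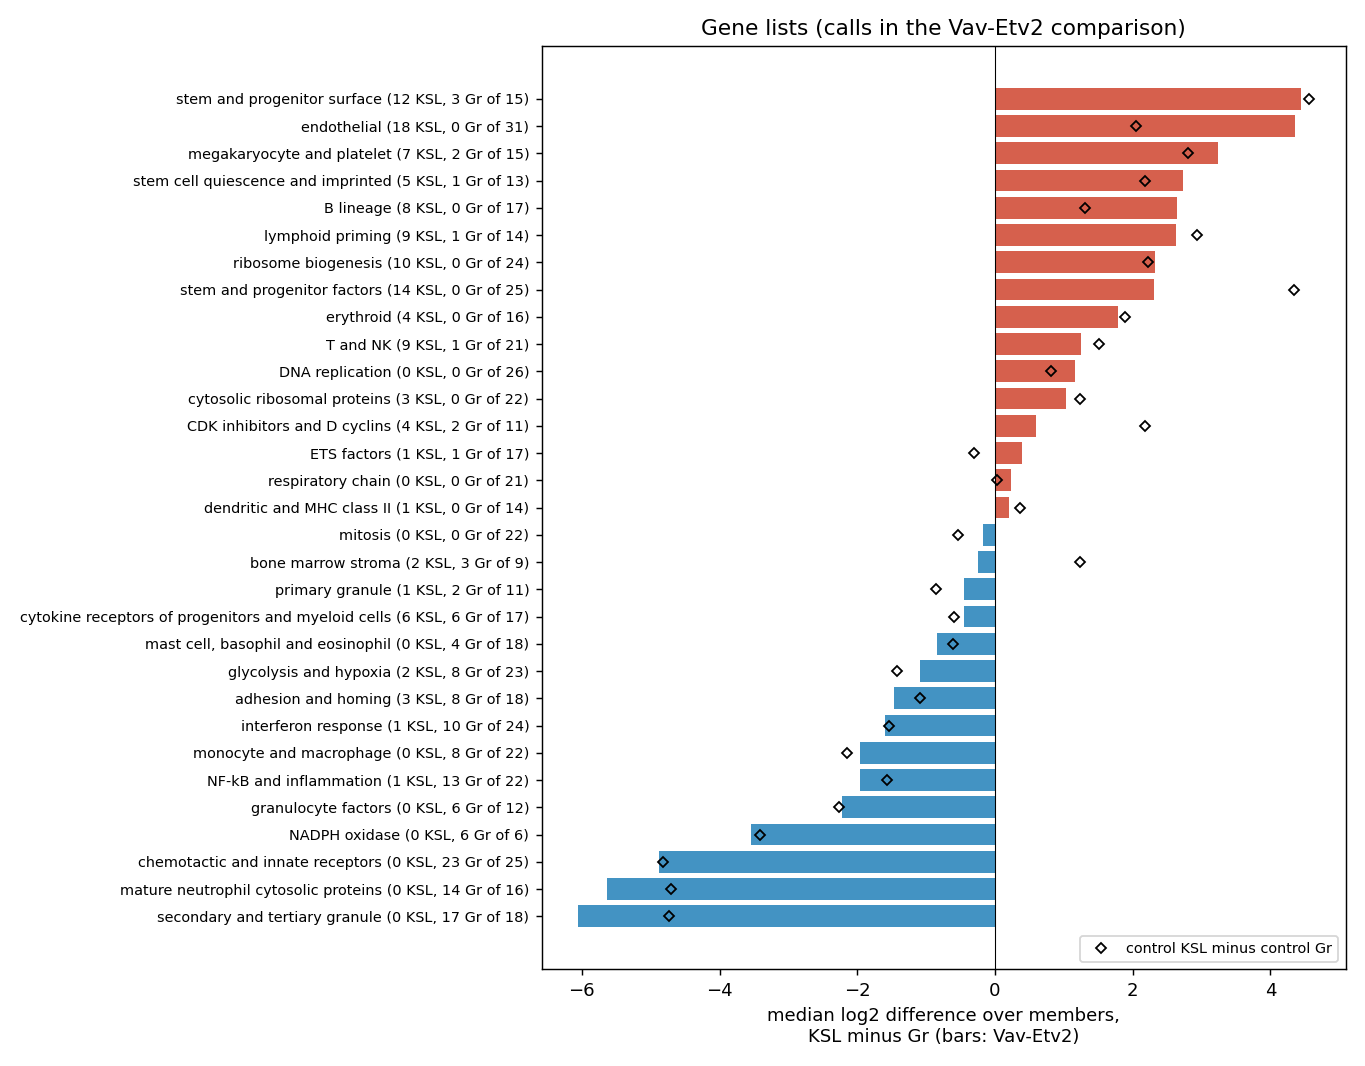
Median log2 difference of KSL minus Gr over the measured members of 31 gene lists (horizontal). Bars give the Vav-Etv2 arrays, diamonds the control arrays, and the labels give how many members were called higher in KSL and in Gr cells. Secondary and tertiary granule genes lie lowest, at -6.05, and stem and progenitor surface genes highest, at 4.44.

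**Figure D4:**
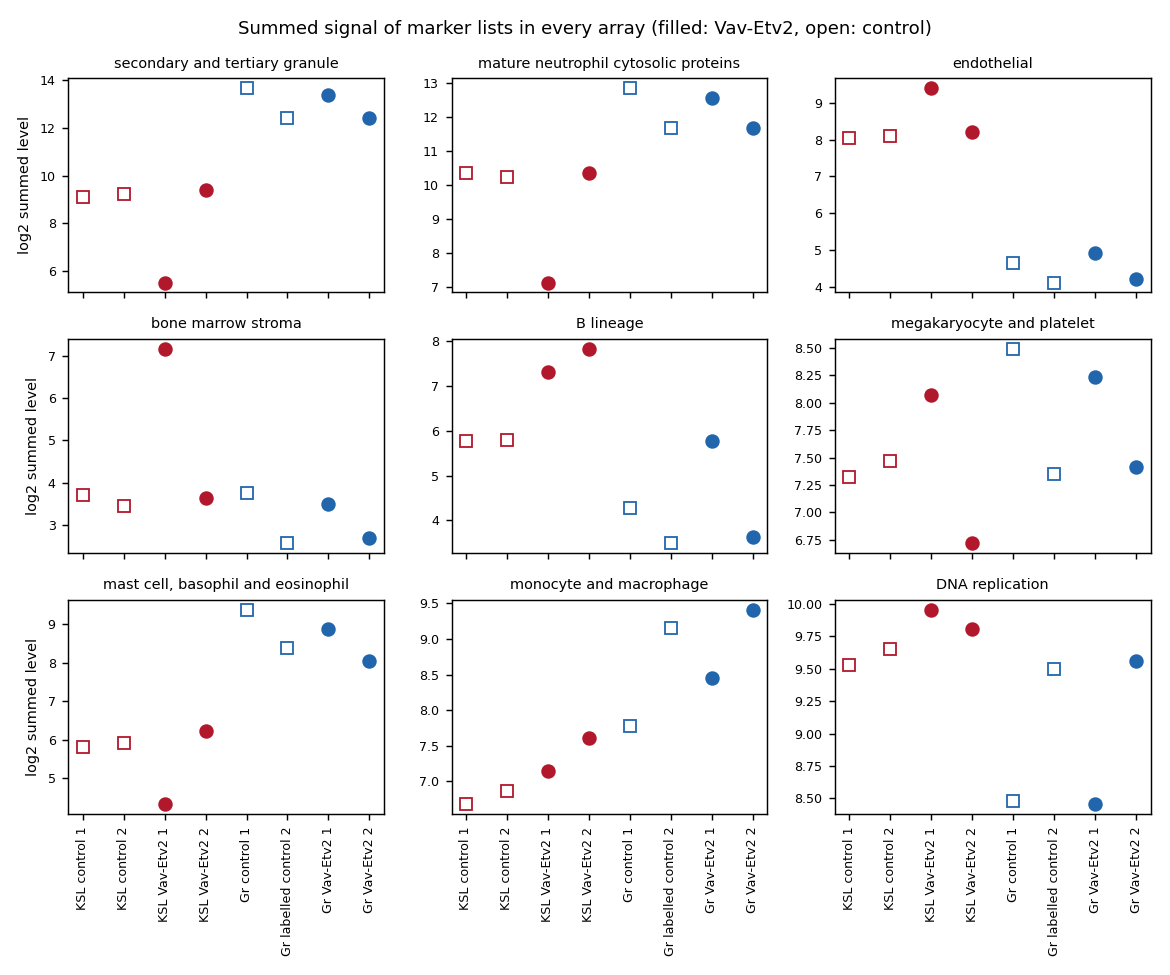
Summed signal of 9 marker lists (vertical, log2, each panel on its own scale) in each of the 8 arrays, with red for KSL, blue for Gr, filled circles for Vav-Etv2 and open squares for control. KSL Vav-Etv2 replicate 1 stands below the other KSL arrays for granule genes (5.53) and above them for endothelial (9.40) and stroma genes (7.16), the latter mainly through Sparc (7.08), since the median replicate difference over the stroma list is -0.08.

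Most of the calls between KSL and Gr cells in Vav-Etv2 marrow were also made in control marrow. In the controls 3773 features (16.2%) were higher in KSL cells and 4294 (18.5%) in Gr cells. Of the Vav-Etv2 KSL calls, 2074 were also called in the controls, which is 85.6% of them and 55.0% of the control KSL calls. Of the Gr calls, 2714 were shared, which is 84.5% and 63.2%. Among Vav-Etv2 calls 99.1% had the same sign in the controls. These comparisons share no array, but they share the estimate of the spread. The control comparison rests on 2 Gr arrays, of which the array labelled Gr control 2 carried Etv2 signal and correlated at 0.993 with Gr Vav-Etv2 replicate 2. The test of the interaction, which asks whether the cell type difference itself depended on genotype, called 1 of 23227 features (0.00431%), and 904 had an unadjusted p under 0.05, where 1161 are expected by chance. That feature, ENSMUST00000103414 on chromosome 12, was not above background in any Vav-Etv2 array and was called in the control KSL cells. A low count of interaction calls does not show that the genotypes were alike, since the median SE of the difference alone was 0.42.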

How the data were processed

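Each array was scanned once, and all 8 lay on 1 slide. The deposited intensity values are Agilent Feature Extraction processed signals, already background-corrected (version 10.7.3.1, per the file headers, and 10.7, per the submitters' processing notes). Per the file headers, other columns hold 0 or 1 marks for control spots, outliers and spots well above background. The log2 values that were deposited as a matrix entered no result, because each probe's median over the arrays of a cell type is 0. Signals of non-control probes were put on a log2 scale and reduced by the array's 75th percentile, repeat spots were averaged, and a probe entered when at least 2 of 8 arrays were well above background. The probe with the highest mean stood for a gene. Of 6090 genes with more than 1 passing probe, 12 had called probes in both directions. Names came from transcript accessions (26004 probes) or current or older symbols (3093 and 581), and 26003 probes kept the file's name. In limma 3.58.1 (R 4.3.3, with version 1.17.8 of the data.table package) 4 group means were fitted over 8 arrays, with contrasts for cell type within genotype and for their difference, and Benjamini-Hochberg adjusted p under 0.05 was a call. Where no array of the lower group was above background, the fold is a bound: "at least" compares the brighter mean with the higher of the dim probe's own signal and the lowest signal well above background. The scripts were tested on simulated data.

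Named genes were the 10 largest called differences in each direction above background on all 4 Vav-Etv2 arrays. To these were added the 10 brightest calls above background in only 1 cell type of those arrays, called interactions, list members, Etv2, Xist and Ddx3y. The largest and the brightest were taken only from features with a gene symbol. Of 610 entries in 33 gene lists, 577 were measured. The members and lists were chosen with earlier results of these data known. The alternatives were other scalings, normexp with an offset of 50, other filters, a floor, single probes, an intensity trend, the 4 arrays alone, a replicate block and left-out arrays. The number of arrays limits the precision.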

Additional observations from a re-analysis of the deposited data

Results flagged for a closer look

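The cell type difference of 1 feature depended on genotype. ENSMUST00000103414, a transcript read at chr12:114509504-114509563 of mm9, was well above background in the KSL controls alone, at 1.06 and 1.34. It read -5.56 and -5.54 in KSL Vav-Etv2 cells, -5.68 and -5.58 in Gr Vav-Etv2 cells and -5.46 and -5.44 in Gr controls, all not above background. The KSL minus Gr difference was 0.08 in Vav-Etv2 cells and 6.65 in controls, and the interaction was -6.57 (SE 0.38, limma adjusted p = 0.0159). Both KSL controls lay above both KSL Vav-Etv2 arrays. This call was not kept in most alternatives, as given under the dependence on the processing, and its cause was not tested. Groups of 2 arrays are too small for a test of single outlying arrays.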

How the results depend on the processing

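No named or listed gene changed direction between the main run and an alternative when it was called in either. Genes called in neither did change direction, up to 42 of them in 1 alternative (without Gr Vav-Etv2 replicate 2, for example). Of 265 calls among 567 named and listed genes, 116 held in every alternative in which they were tested. The calls of 2422 features higher in KSL and 3210 higher in Gr cells became 1501 and 2791 among features above background on all 8 arrays, where fewer were tested (17117), and 5563 and 5157 without both Gr replicate 2 arrays, of which 2229 and 3015 were among the first. Leaving out 1 array gave 1106 to 3484 KSL calls and 1091 to 3793 Gr calls, where the lone array left in a group is assumed to vary like the other groups. The share of calls higher in KSL cells was 43.0%, and was 54.4% without Gr Vav-Etv2 replicate 1. The 1 interaction call became 2 with median scaling, 5 with quantile normalization and 6 with normexp, and 0 with no filter, both other filters, the floor, the intensity trend, without both Gr replicate 2 arrays and in every leave-out (0 to 0). The causes were not tested. Replicate numbers are shared by the groups, but no label ties them. Replicate differences correlated at -0.0554 between the Vav-Etv2 cell types and 0.0679 between the KSL genotypes, but at 0.658 between the Gr genotypes, whose arrays deviate together by number, in sex-linked RNA too. With the replicate number as a block there were 3105 and 3729 calls, of which 2397 and 3178 were among the first, and 0 interaction calls. A gene above background on no array of the lower group carries a bound, one above background on 1 of 2 a fold that can shrink at the floor, and 2 arrays a group leave a median SE of 0.42.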
